A study of Mus musculus with 18 samples.

Results

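A set of 7 tripartite motif (TRIM) genes with known roles in antiviral defence was followed in mouse endothelial cells (ECs), which form the inner wall of blood vessels. They were Trim14, Trim21, Trim25, Trim26, Trim30a, Trim34a and Trim56, chosen by name as 7 of the 16248 genes in the deposited expression table. All 7 passed the filter on low values that left 13983 genes for testing. The ECs were sorted from female FVB mice in 6 groups of 3 libraries, 18 in all. Normal ECs were those of the mammary fat pad in wild-type animals. MMTV-PyMT ECs came from breast tumours that arise without implantation in mice of the MMTV-PyMT genotype, in which the promoter of mouse mammary tumour virus drives a viral oncogene in the mammary epithelium. Implanted ECs came from breast tumours that grew in the fat pad of wild-type mice after tumour cells taken from MMTV-PyMT tumours were placed there. Each tissue was injected either with phosphate-buffered saline (PBS) or with 3'3'cGAMP (cGAMP), a cyclic dinucleotide that activates the protein STING, and was taken 3 h later. The labels gave no ages. The study's methods describe a gate on live CD45-negative, CD31-positive cells, so that each library is a mixture of sorted ECs and not a pure culture. A lower value in such a library can reflect fewer cells of a type or less RNA per cell, and these cannot be told apart. The 6 columns of normal ECs carry no tissue in their names and were matched to the fat pad because the other 12 name a tumour.

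TRIM proteins share a RING domain, B-box zinc fingers and a coiled coil, and the RING makes most of them E3 ubiquitin ligases, which attach ubiquitin to a chosen protein. Several are induced by type I interferon and act on the sensors of viral nucleic acid or on the viruses themselves, while others remove signalling proteins and so slow the response. Trim14 lacks the RING domain and works as an adaptor, so the name ligase does not apply to it. STING, the target of cGAMP, sits on the endoplasmic reticulum and passes its signal through the kinase TBK1 to the transcription factor IRF3, which switches on interferon genes.

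The files gave FPKM, fragments per kilobase of transcript after a scaling of each library. It is a level per length that allows genes to be set side by side. Whole reads recovered from these values summed to between 9068064 and 12058796 per library. The scaling did not follow these sums alone. In normal PBS replicate 1, with 10142641 recovered reads, 1 read per kilobase stood for 0.0847 FPKM. In implanted cGAMP replicate 1, with 11232852 recovered reads, it stood for 0.1196 FPKM. Levels compared between libraries rest on this scaling, whose rule is not given. The 8 endothelial markers summed to between 715 and 1730 FPKM across all libraries. The 6 leukocyte markers used summed to between 16.9 and 212 FPKM, and the highest value was in implanted cGAMP replicate 2. Epithelial markers were not absent, as 5 of them summed to between 798 and 861 FPKM in MMTV-PyMT PBS libraries and between 283 and 361 FPKM in normal PBS libraries. The 5 mural cell markers ranged from 859 to 966 FPKM in normal PBS libraries and from 180 to 276 FPKM in both PBS tumour groups. The 5 fibroblast markers summed to 47.3 to 89.2 FPKM in normal libraries, 110 to 174 FPKM in MMTV-PyMT libraries and 234 to 602 FPKM in implanted libraries. The 4 adipocyte markers were not analysed here.

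The promoters of the members were read to show where a known interferon motif lies. RefSeq promoters (GRCm38.p6, from a C57BL/6J mouse and not from FVB) spanning 250 bases before and 50 bases after a transcription start were at hand for 6 of the 7 members. Trim14 had no entry. The interferon-stimulated response element (ISRE) core GAAANNGAAA, searched on both strands, was in the promoters of Trim21, Trim26, Trim30a and Trim34a, 4 of 6 members, and in 3.44% of all 32851 promoters. Trim25 and Trim56 held no match in this window. The gamma-activated site TTCNNNGAA was in none of the 6 members and in 8.3% of all promoters. In the sequences shown here, 5′ to 3′ on the strand of the gene, capitals mark the ISRE core, and overlapping matches run together.
Trim21, chr7:102565447-102565476, minus strand: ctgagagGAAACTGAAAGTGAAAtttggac
Trim34a, chr7:104244457-104244486, plus strand: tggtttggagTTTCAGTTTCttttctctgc
Trim26, chr17:36836964-36837023, plus strand: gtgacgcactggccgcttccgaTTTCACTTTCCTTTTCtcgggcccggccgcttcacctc
Trim30a, chr7:104465195-104465254, minus strand: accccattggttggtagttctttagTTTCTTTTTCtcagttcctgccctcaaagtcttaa
Trim30a, second start, chr7:104446104-104446133, minus strand: ttgtttttagTTTCTTTTTCtcagttcctg
Counting the first transcribed base as +1, the cores began at +14 and +20 in Trim21, at +11 in Trim34a, at -160 and -154 in Trim26, at -36 at the main start of Trim30a and at +3 at its second start. Both Trim30a starts in RefSeq lie 19068 bases apart within the gene, and their promoters share a run of 31 bases that includes the core. The first bases after the second start were in no GENCODE transcript of the gene, unlike those of the other member promoters. Trim21 and Trim26 each carried 2 overlapping cores, whereas Trim34a carried 1.

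All 7 genes were higher in each of the 3 cGAMP libraries than in each of the 3 PBS libraries in all 3 tissues. Of all tested genes, that separation held for 20.9% in normal ECs, for 14.8% in MMTV-PyMT ECs and for 22.4% in the implanted group. In the limma test with Benjamini-Hochberg adjustment over all tested genes, 6 of 7 members passed as higher in normal ECs, where 13.7% of all genes did. In MMTV-PyMT ECs 7 of 7 passed as higher against 7.42% of all genes, and in implanted ECs 7 of 7 against 20.3%. Some marker sums moved with treatment. Epithelial markers were 798 to 861 FPKM under PBS and 561 to 781 FPKM under cGAMP in MMTV-PyMT ECs. Fibroblast markers were 234 to 269 FPKM under PBS and 253 to 602 FPKM under cGAMP in implanted ECs. Leukocyte markers in implanted ECs, 25.8 to 64.0 FPKM under PBS, were 44.5 to 212 FPKM under cGAMP. Endothelial markers overlapped between treatments in all 3 tissues, and the part of other cells in the changes was not tested. The median log2 change of the 7 was 0.97, 1.38 and 1.43 in that order of tissues, and that of all tested genes was -0.04, -0.04 and -0.01. Log2 changes are differences of log2(FPKM + 1), a scale on which weakly expressed genes appear to change less than they do. The number of genes that passed in each direction moved when libraries were scaled to their total reads instead. In implanted ECs 2841 genes were higher and 2623 lower as deposited, and 1691 higher and 5927 lower after that scaling. In MMTV-PyMT ECs these were 1037 and 639 as deposited and 914 and 2371 after scaling.

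**Figure D1:**
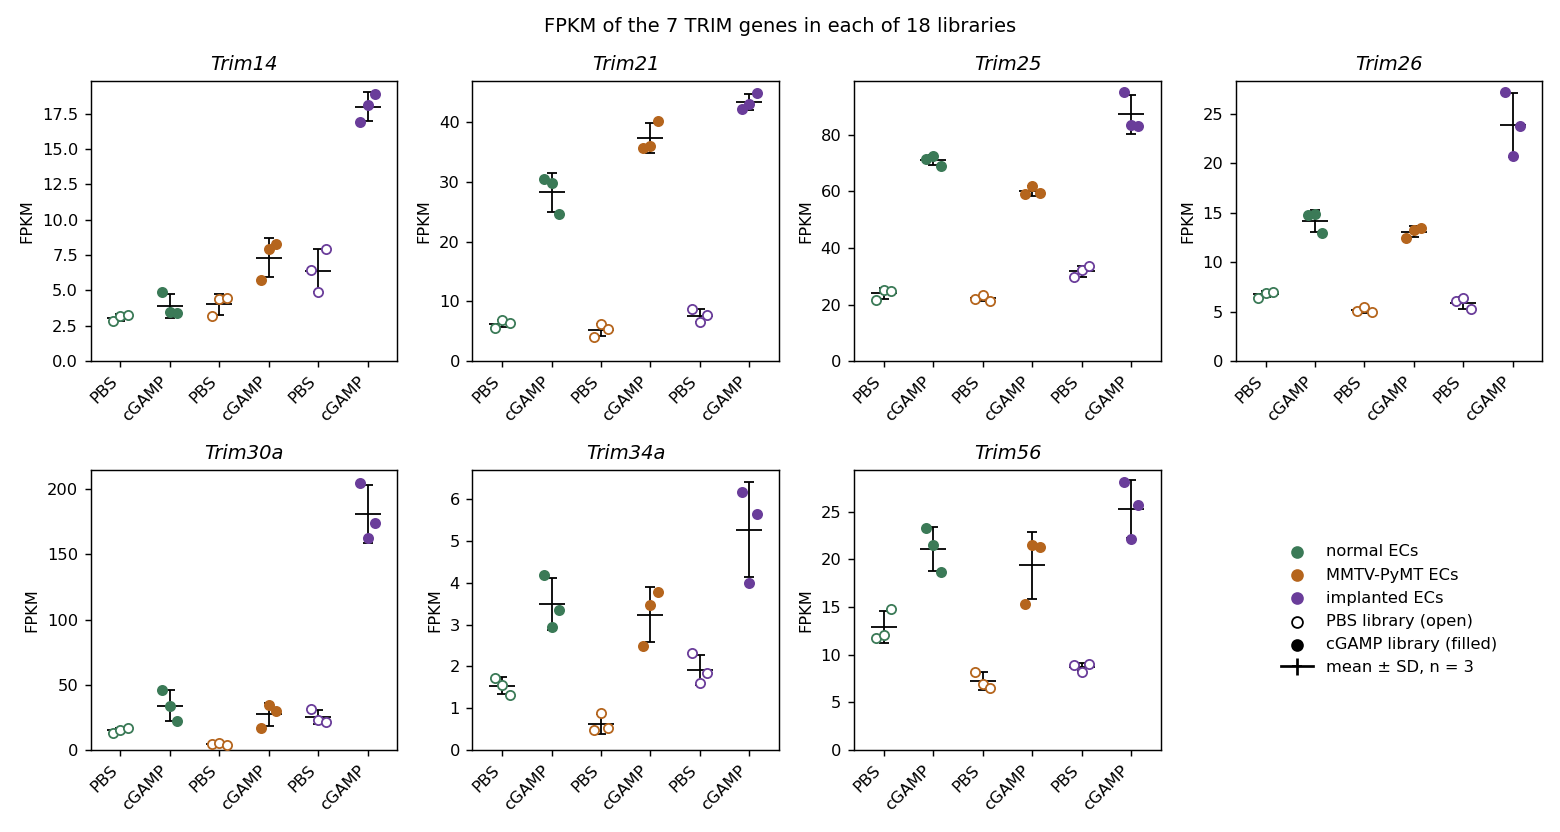
FPKM (vertical axes, from 0, separate for each gene) of the 7 genes in each library, grouped by tissue (colour) and treatment (open points PBS, filled points cGAMP), with mean ± SD of 3 libraries. Trim30a reached 163 to 205 FPKM in implanted cGAMP libraries and 22.3 to 45.8 FPKM in normal cGAMP libraries, while Trim25 lay between 58.9 and 95.2 FPKM in every cGAMP library.

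Trim25 is the ligase best known for adding ubiquitin chains in the pathway of the RNA sensor RIG-I, and a cofactor of the antiviral protein ZAP. It is encoded on chr11:88999376-89020293, plus strand (GRCm38, GENCODE M21, ENSMUSG00000000275.16). In normal ECs its level was 21.7, 25.2 and 24.9 FPKM under PBS and 71.5, 72.3 and 69.0 FPKM under cGAMP. In MMTV-PyMT ECs it was 22.1, 23.2 and 21.4 FPKM under PBS and 58.9, 62.0 and 59.4 FPKM under cGAMP. In implanted ECs it was 29.6, 32.1 and 33.5 FPKM under PBS and 95.2, 83.5 and 82.9 FPKM under cGAMP. The treatment groups were far apart in every tissue, with little spread within a group. The log2 change was 1.53 in normal ECs (SE 0.08, adjusted p = 8.7e-10), 1.4 in MMTV-PyMT ECs (SE 0.08, adjusted p = 1.38e-09) and 1.43 in the implanted group (SE 0.08, adjusted p = 7.4e-10).

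Trim56, a ligase reported to act on STING and cGAS, lies on chr5:137105644-137116209, minus strand (ENSMUSG00000043279.9). Its level in normal ECs was 11.7, 12.1 and 14.8 FPKM under PBS and 23.3, 21.5 and 18.7 FPKM under cGAMP. MMTV-PyMT ECs had 8.23, 6.97 and 6.46 FPKM under PBS and 15.3, 21.5 and 21.3 FPKM under cGAMP. Implanted ECs had 8.88, 8.21 and 9.01 FPKM under PBS and 28.1, 22.1 and 25.7 FPKM under cGAMP. Normal ECs began highest under PBS and had the smallest ratio of mean FPKM, 1.64, against 2.68 in MMTV-PyMT ECs and 2.91 in the implanted group. The log2 changes were 0.68 (SE 0.13, adjusted p = 0.00127), 1.3 (SE 0.13, adjusted p = 3.63e-06) and 1.43 (SE 0.13, adjusted p = 3.95e-07).

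Trim14 is an adaptor at mitochondria in the RIG-I pathway and is also known to stabilise cGAS, the enzyme that makes cGAMP in cells. The gene lies on chr4:46493781-46536141, minus strand (ENSMUSG00000039853.18), and its exons overlap those of Nans on the plus strand. The study's methods name a directional library kit, but the use of strand in counting is not given in the sources used here. Whether the reads of this pair were kept apart is therefore not known. Normal ECs had 2.81, 3.19 and 3.25 FPKM under PBS and 4.91, 3.46 and 3.39 FPKM under cGAMP. The groups did not overlap, but 2 of the cGAMP libraries lay just above the PBS libraries. The log2 difference of 0.26 did not pass (95% interval -0.09 to 0.6, adjusted p = 0.243), and without normal cGAMP replicate 1 it was 0.12 (adjusted p = 0.642). MMTV-PyMT ECs had 3.20, 4.38 and 4.46 FPKM under PBS and 5.76, 7.95 and 8.29 FPKM under cGAMP. Implanted ECs had 6.44, 4.87 and 7.91 FPKM under PBS and 16.9, 18.1 and 18.9 FPKM under cGAMP. In both tumours every cGAMP library was above every PBS library, with a log2 change of 0.73 in MMTV-PyMT ECs (SE 0.16, adjusted p = 0.00742) and 1.38 in the implanted group (SE 0.16, adjusted p = 5.18e-06).

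Trim21 is the cytosolic antibody receptor that binds virus particles coated with antibody and marks them for the proteasome. It lies on chr7:102557921-102565486, minus strand (ENSMUSG00000030966.13), and carried the pair of overlapping ISRE cores just after its start. Under PBS its level was 5.61, 6.83 and 6.39 FPKM in normal, 4.08, 6.19 and 5.47 FPKM in MMTV-PyMT and 8.67, 6.51 and 7.66 FPKM in implanted ECs. Under cGAMP it was 30.6, 29.8 and 24.6 FPKM, 35.8, 36.0 and 40.2 FPKM, and 42.2, 43.1 and 44.9 FPKM in the same order. All 9 cGAMP libraries were above all 9 PBS libraries. Trim21 had the largest log2 change of the 7 in normal ECs, 2.01 (SE 0.12, adjusted p = 1.37e-08), and in MMTV-PyMT ECs, 2.63 (SE 0.12, adjusted p = 2.8e-10). In implanted ECs the change was 2.37 (SE 0.12, adjusted p = 6.8e-10). Among the 13983 tested genes its rise ranked 76 in normal ECs, 67 in MMTV-PyMT ECs and 137 in the implanted group.

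Trim26 is a ligase known to remove IRF3 from the nucleus and also to link the kinase TBK1 to its partners. It lies on chr17:36837134-36859398, plus strand (ENSMUSG00000024457.16). In normal ECs it had 6.41, 6.86 and 7.0 FPKM under PBS and 14.8, 14.9 and 13.0 FPKM under cGAMP. In MMTV-PyMT ECs it had 5.05, 5.51 and 4.93 FPKM under PBS and 12.5, 13.3 and 13.5 FPKM under cGAMP. In implanted ECs it had 6.09, 6.36 and 5.25 FPKM under PBS and 27.2, 20.7 and 23.8 FPKM under cGAMP. The PBS levels were close in the 3 tissues, and the implanted cGAMP libraries stood above all others. The log2 change was 0.97 in normal ECs (SE 0.1, adjusted p = 2.08e-06), 1.19 in MMTV-PyMT ECs (SE 0.1, adjusted p = 1.6e-07) and 1.85 in the implanted group (SE 0.1, adjusted p = 5.63e-10).

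Trim30a is a mouse gene of the Trim5 neighbourhood, known as a brake on NF-kB signalling through the breakdown of TAB2 and TAB3. It lies on chr7:104409025-104465193, minus strand (ENSMUSG00000030921.17), and has near-identical relatives, so its reads may be split with them. Normal ECs had 13.3, 14.9 and 16.6 FPKM under PBS and 45.8, 33.6 and 22.3 FPKM under cGAMP. MMTV-PyMT ECs had 4.78, 5.07 and 3.89 FPKM under PBS and 17.1, 34.7 and 29.7 FPKM under cGAMP. Implanted ECs had 31, 23.1 and 21.2 FPKM under PBS and 205, 163 and 174 FPKM under cGAMP. The cGAMP libraries of normal and MMTV-PyMT ECs overlapped each other, whereas those of implanted ECs lay far above both. The log2 change was 1.08 in normal ECs (SE 0.24, adjusted p = 0.00328), 2.29 in MMTV-PyMT ECs (SE 0.24, adjusted p = 5.41e-06) and 2.81 in the implanted group (SE 0.24, adjusted p = 1.65e-07). In that group it was the largest change of the 7.

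Leukocytes also express Trim30a, so the leukocyte markers were set beside it. In implanted ECs the 6 leukocyte markers summed to 25.8 to 64.0 FPKM under PBS and to 44.5 to 212 FPKM under cGAMP. The implanted cGAMP library with the highest sum, replicate 2, had the lowest Trim30a of its group, and without it the log2 change was 2.88 (adjusted p = 9.74e-07). In MMTV-PyMT ECs the sums were 16.9 to 27.3 FPKM under PBS and 18.8 to 22.2 FPKM under cGAMP, in the comparison where Trim30a changed by 2.29. In normal cGAMP ECs replicate 1 had both the highest sum, 58.7 FPKM, and the highest Trim30a, and without it the log2 change was 0.84 (adjusted p = 0.019). Ptprc, the gene of CD45, was 0.37 to 1.09 FPKM under PBS and 1.7 to 9.24 FPKM under cGAMP in implanted ECs. In MMTV-PyMT ECs it was 0.262 to 0.333 FPKM and 0.156 to 0.311 FPKM. In normal ECs it was 1.98 to 6.31 FPKM and 0.903 to 9.73 FPKM. These are values of single libraries, and the part of leukocyte RNA in the result was not tested.

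Trim34a belongs to the same chromosome 7 cluster, whose genes are related to known restriction factors of retroviruses. It lies on chr7:104244457-104262234, plus strand (ENSMUSG00000056144.14), overlaps the antisense gene Gm47248 and has a close relative in Trim34b. It was the least expressed member in every group, with 16 to 148 recovered reads per library. Normal ECs had 1.73, 1.56 and 1.32 FPKM under PBS and 4.18, 2.95 and 3.34 FPKM under cGAMP. MMTV-PyMT ECs had 0.465, 0.890 and 0.516 FPKM under PBS and 2.49, 3.47 and 3.77 FPKM under cGAMP. Implanted ECs had 2.31, 1.61 and 1.83 FPKM under PBS and 6.18, 3.99 and 5.64 FPKM under cGAMP. No cGAMP library overlapped the PBS libraries of its tissue. The log2 change was 0.82 in normal ECs (SE 0.16, adjusted p = 0.0013), 1.38 in MMTV-PyMT ECs (SE 0.16, adjusted p = 1.57e-05) and 1.09 in the implanted group (SE 0.16, adjusted p = 5.72e-05). With a pseudocount of 0.1 in place of 1 the change in MMTV-PyMT ECs was 2.23, and the PBS levels there lay below 1 FPKM.

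**Figure D2:**
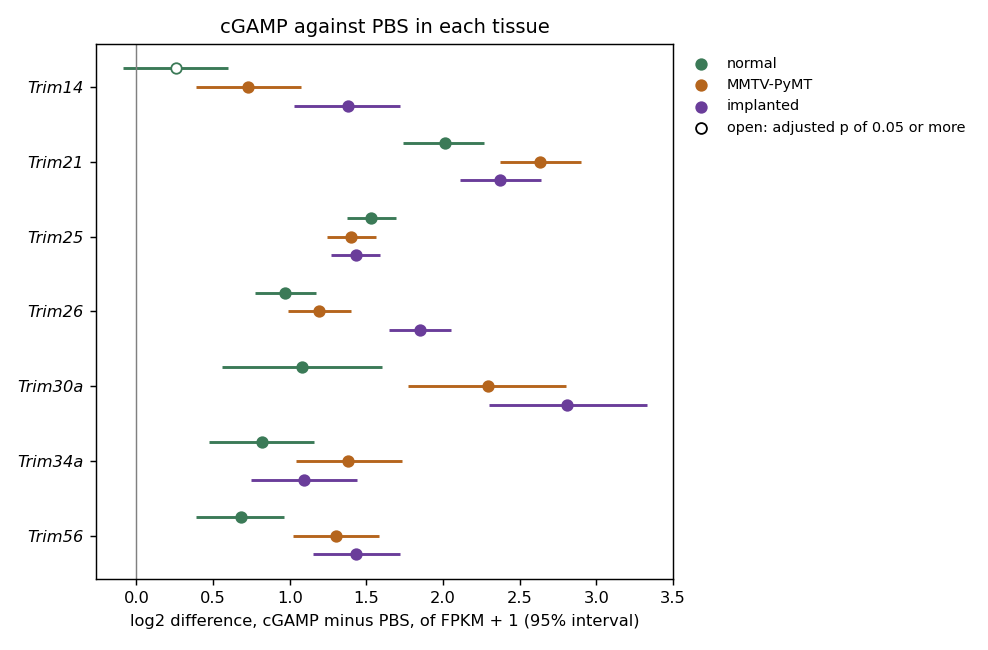
Log2 difference between cGAMP and PBS of FPKM + 1 (horizontal axis, points with 95% intervals from limma) for each gene (vertical axis) in normal, MMTV-PyMT and implanted ECs. All points but that of Trim14 in normal ECs are filled (adjusted p under 0.05), and Trim25 holds nearly the same place in the 3 tissues at 1.53, 1.4 and 1.43.

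Whether the change differed between tissues was tested as a difference of differences. Between implanted and normal ECs 4 of 7 members differed, where 18.6% of all tested genes did. The rise was larger in implanted ECs by 1.12 on the log2 scale for Trim14 (95% interval 0.63 to 1.6, adjusted p = 0.00296), by 0.87 for Trim26 (0.59 to 1.16, adjusted p = 0.000339) and by 1.73 for Trim30a (1.0 to 2.46, adjusted p = 0.00243). Trim56 also rose more, by 0.76 (0.35 to 1.16, adjusted p = 0.0105), but not past the threshold when libraries were scaled to total reads (0.45, adjusted p = 0.0657) or quantile normalised (0.45, adjusted p = 0.0819). For Trim21 the difference was 0.37 (-0.01 to 0.74, adjusted p = 0.165) and for Trim34a 0.28 (-0.21 to 0.76, adjusted p = 0.438). Trim25 differed by -0.1 (-0.33 to 0.12, adjusted p = 0.55), and it passed as a smaller rise in implanted ECs after scaling to total reads (-0.42, adjusted p = 0.0038) or quantile normalisation (-0.55, adjusted p = 0.000866). Total-read scaling moved the median of all genes in this comparison by -0.23.

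Between MMTV-PyMT and normal ECs 2 of 7 members differed, against 8.37% of all tested genes, and neither call held under all alternatives. Trim30a rose more in MMTV-PyMT ECs by 1.21 (95% interval 0.48 to 1.94, adjusted p = 0.0416) and Trim21 by 0.62 (0.25 to 1.0, adjusted p = 0.0396). The call for Trim30a was lost in 10 of 12 fits that left out a library, with adjusted p from 0.0546 to 0.103. Only without normal cGAMP replicate 1 or MMTV-PyMT cGAMP replicate 1 was it kept. It was also lost when only the groups compared entered the fit (adjusted p = 0.0554). The call for Trim21 was lost in 8 of 12 such fits, with adjusted p from 0.0552 to 0.102, and was kept when replicate 1 of normal PBS, normal cGAMP or MMTV-PyMT cGAMP, or replicate 2 of MMTV-PyMT PBS, was left out. It was also lost after scaling to total reads (0.5, adjusted p = 0.089) and quantile normalisation (0.52, adjusted p = 0.0627). Trim56 differed by 0.62 (0.22 to 1.02) and missed the threshold at an adjusted p of 0.0537, and in 3 of 12 such fits it passed, with adjusted p from 0.0105 to 0.0493. Those fits left out normal cGAMP replicate 1, MMTV-PyMT PBS replicate 1 or MMTV-PyMT cGAMP replicate 1. It passed as well with a pseudocount of 0.1, quantile normalisation or limma-voom, with adjusted p of 0.0493, 0.0433 and 0.0338. The intervals for Trim14 (-0.01 to 0.96), Trim26 (-0.06 to 0.51), Trim34a (0.08 to 1.05) and Trim25 (-0.36 to 0.09) went with adjusted p of 0.219, 0.338, 0.14 and 0.478. Over the alternatives that left out no single library the difference for Trim34a ranged from 0.37 to 1.24, and it never passed.

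Between both tumour types 1 of 7 members differed, and 11.1% of all tested genes did. Trim26 rose more in implanted ECs by 0.65 (95% interval 0.37 to 0.94, adjusted p = 0.00482). Trim14 differed by 0.65 as well but with a wider interval (0.16 to 1.13, adjusted p = 0.0832), and it passed without implanted PBS replicate 3 (adjusted p = 0.0397) or MMTV-PyMT PBS replicate 1 (adjusted p = 0.0499). Trim30a, for all its high level in implanted ECs, differed by 0.53 (-0.2 to 1.26, adjusted p = 0.384). The other differences were -0.26 for Trim21 (-0.63 to 0.11), 0.03 for Trim25 (-0.19 to 0.26), -0.29 for Trim34a (-0.77 to 0.2) and 0.13 for Trim56 (-0.27 to 0.54). That of Trim34a, the least expressed member, ranged from -0.96 to -0.16 over the alternatives that left out no single library, and never passed. The differences for Trim25 and Trim56 turned negative after scaling to total reads or quantile normalisation. After quantile normalisation Trim21 (-0.61, adjusted p = 0.0318) and Trim25 (-0.38, adjusted p = 0.0153) passed as smaller rises in implanted ECs. The comparisons of tissues share groups and are not independent of each other.

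**Figure D3:**
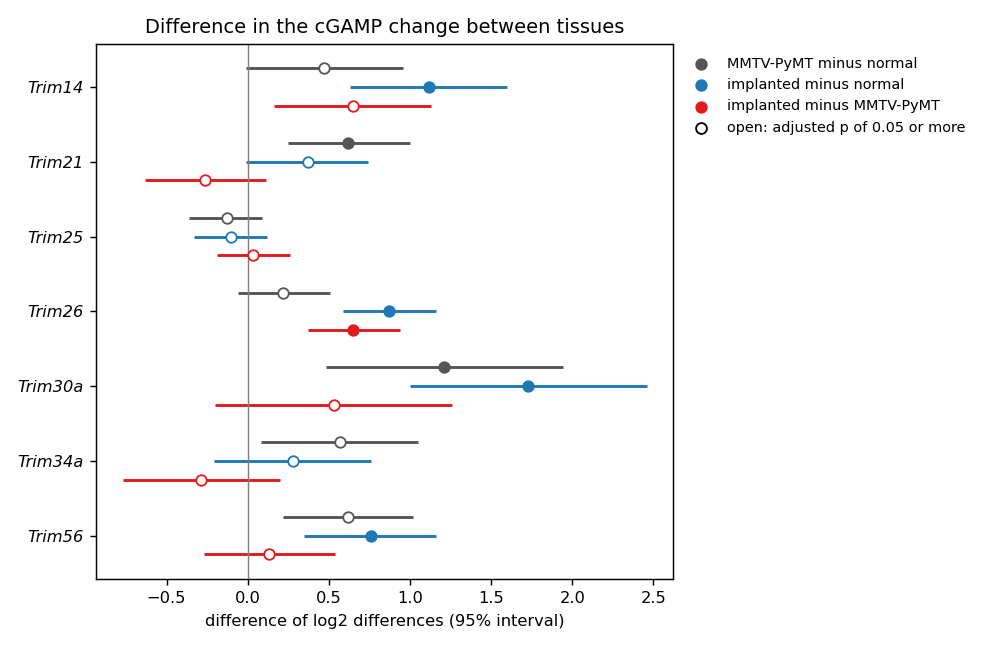
Difference of the cGAMP change between tissues (horizontal axis, log2 units, points with 95% intervals from limma) for each gene (vertical axis), with one colour for each pair of tissues and filled points at an adjusted p under 0.05. Trim30a has the widest intervals, and the 3 points of Trim25 lie between -0.13 and 0.03.

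Under PBS alone the tissues already differed. In MMTV-PyMT ECs 4 of 7 members were lower than in normal ECs and none higher. Of all 13983 tested genes 56.5% differed either way, 3726 lower and 4168 higher, so a difference was common. Trim30a was lower by 1.51 on the log2 scale (adjusted p = 7.57e-05), with 3.89 to 5.07 FPKM against 13.3 to 16.6 FPKM. Trim56 (-0.75, adjusted p = 0.00019), Trim34a (-0.65, adjusted p = 0.00284) and Trim26 (-0.33, adjusted p = 0.00719) were lower too. In none of the 4 did the groups overlap, but how common such separation was among all genes under PBS was not counted. The differences for Trim14 (0.29, adjusted p = 0.142), Trim21 (-0.23, adjusted p = 0.124) and Trim25 (-0.1, adjusted p = 0.269) did not pass, and their libraries overlapped. Trim21 passed as lower without MMTV-PyMT PBS replicate 2 (-0.34, adjusted p = 0.0393), and Trim25 after quantile normalisation (-0.2, adjusted p = 0.0147). Epithelial and mural markers moved with this comparison, as given with the depth of the libraries. The 8 endothelial markers summed to 715 to 872 FPKM in MMTV-PyMT and 1000 to 1130 FPKM in normal PBS libraries, so that they were lower as well, and the fibroblast markers were higher, at 110 to 174 FPKM against 68.7 to 79.6 FPKM. Leukocyte markers were 16.9 to 27.3 FPKM against 24.8 to 56.6 FPKM, and Ptprc alone 0.262 to 0.333 FPKM against 1.98 to 6.31 FPKM. The part of these shifts in the result was not tested.

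Implanted ECs differed from normal ECs under PBS in 4 of 7 members, where 48.7% of all tested genes differed. Trim14 (0.84, adjusted p = 0.000457), Trim30a (0.7, adjusted p = 0.026) and Trim25 (0.39, adjusted p = 0.000438) were higher, and Trim56 (-0.51, adjusted p = 0.00493) was lower. The call for Trim30a was lost without normal PBS replicate 1, normal PBS replicate 2 or implanted PBS replicate 1, with adjusted p from 0.0569 to 0.115, and after scaling to total reads (0.53, adjusted p = 0.0655). Trim21 (0.24, adjusted p = 0.126), Trim26 (-0.17, adjusted p = 0.15) and Trim34a (0.2, adjusted p = 0.329) did not pass, although all 3 implanted libraries had less Trim26 than the normal ones and it passed as lower after scaling to total reads (-0.33, adjusted p = 0.00255). Mural markers were lower and fibroblast markers higher in the implanted libraries. Ptprc was lower there, at 0.37 to 1.09 FPKM against 1.98 to 6.31 FPKM. The part of these cells in the result was not tested.

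Against MMTV-PyMT ECs, implanted ECs had higher levels of 5 of 7 members under PBS. Of all 13983 tested genes 45.5% differed either way, 2915 higher and 3446 lower. Trim30a stood out with 21.2 to 31 FPKM against 3.89 to 5.07 FPKM, a log2 difference of 2.21 (SE 0.24, adjusted p = 4.26e-06) that ranked 73 among all tested genes. Trim34a (0.85, adjusted p = 0.000559), Trim14 (0.55, adjusted p = 0.0111), Trim25 (0.49, adjusted p = 8.61e-05) and Trim21 (0.47, adjusted p = 0.00599) followed. The call for Trim14 was lost without implanted PBS replicate 3 or MMTV-PyMT PBS replicate 1, with adjusted p of 0.0658 and 0.0589. Trim56 (0.24, adjusted p = 0.149) and Trim26 (0.16, adjusted p = 0.178) did not pass, and each had 1 library within the range of the other group. Trim26 passed as higher after quantile normalisation (0.23, adjusted p = 0.0342). Several marker lists moved with this comparison. Epithelial markers summed to 337 to 481 FPKM in implanted and 798 to 861 FPKM in MMTV-PyMT PBS libraries, and endothelial markers to 1010 to 1280 FPKM and 715 to 872 FPKM. Fibroblast markers summed to 234 to 269 FPKM and 110 to 174 FPKM. Leukocyte markers summed to 25.8 to 64.0 FPKM and 16.9 to 27.3 FPKM, and these sums overlapped. Ptprc alone did not overlap, at 0.37 to 1.09 FPKM and 0.262 to 0.333 FPKM. The part of these cells in the result was not tested.

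**Figure D4:**
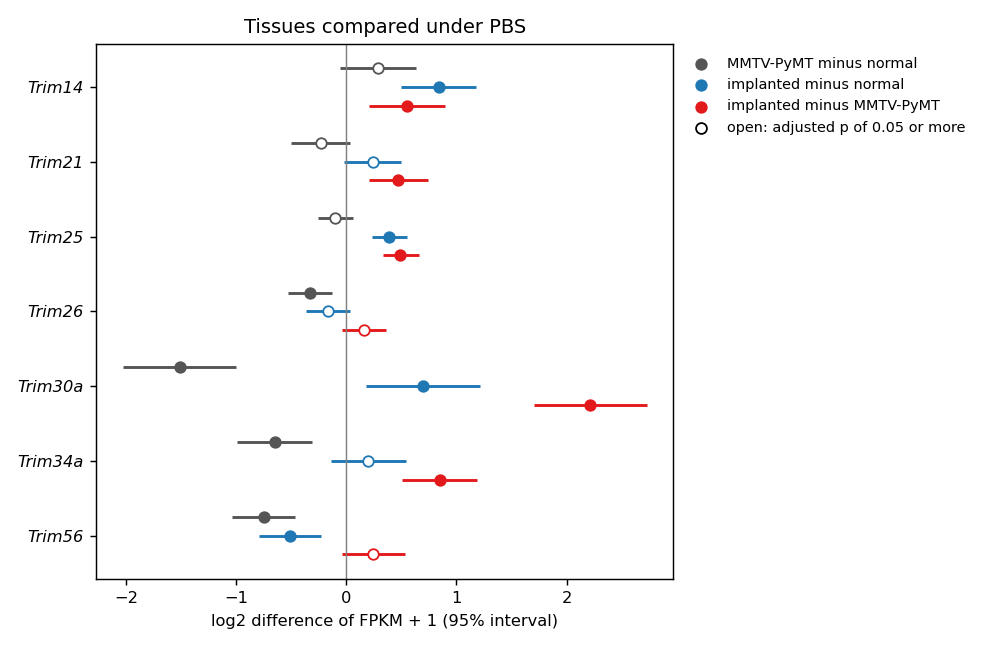
Log2 difference of FPKM + 1 between tissues under PBS (horizontal axis, points with 95% intervals from limma) for each gene (vertical axis), with filled points at an adjusted p under 0.05. Trim30a spans the plot, from -1.51 in MMTV-PyMT against normal ECs to 2.21 in implanted against MMTV-PyMT ECs, while Trim26 stays between -0.33 and 0.16.

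The order of the 7 genes by mean FPKM changed with tissue and treatment. Trim25 came first in 5 of the 6 groups, with means from 22.2 to 70.9 FPKM, and Trim34a came last in all of them. Only in implanted cGAMP ECs did Trim30a come first, at 181 ± 22.1 FPKM (SD, n = 3), above Trim25 at 87.2 ± 6.92 FPKM in all libraries. In MMTV-PyMT PBS ECs Trim30a came in place 5, and its libraries overlapped those of its neighbours Trim26 and Trim14. In normal PBS ECs Trim30a (14.9 ± 1.67 FPKM) and Trim56 (12.9 ± 1.71 FPKM) overlapped, as did Trim26 (6.76 ± 0.308 FPKM) and Trim21 (6.28 ± 0.619 FPKM). In implanted PBS ECs Trim25 and Trim30a overlapped, and so did each neighbouring pair of Trim56, Trim21, Trim14 and Trim26. Trim21 took place 5 under PBS and place 3 under cGAMP in normal ECs, and places 3 and 2 in MMTV-PyMT ECs. Under cGAMP the libraries of Trim30a overlapped those of Trim21 in normal ECs and those of Trim56 in MMTV-PyMT ECs.

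The sum of the 7 genes was 69.4 ± 5.65 FPKM in normal PBS, 49.1 ± 2.77 FPKM in MMTV-PyMT PBS and 87.4 ± 5.18 FPKM in implanted PBS ECs. Under cGAMP it was 176 ± 20.5, 168 ± 17.2 and 384 ± 34.2 FPKM in the same order. The normal and MMTV-PyMT sums under cGAMP overlapped, and the implanted sum was above both in every library. Trim30a made up 47.0% ± 1.53 of the sum in implanted cGAMP ECs, 18.9% ± 4.5 in normal cGAMP and 15.9% ± 3.99 in MMTV-PyMT cGAMP ECs. Trim25 made up 40.6% ± 4.03 of it in normal cGAMP ECs, 36.1% ± 3.3 in MMTV-PyMT cGAMP ECs and 22.7% ± 0.776 in the implanted cGAMP group. The share of Trim21 was highest in MMTV-PyMT cGAMP ECs at 22.4% ± 2.09 and lower in normal, at 16.1% ± 0.527, and implanted cGAMP ECs, at 11.4% ± 1.18. Shares add to a whole, so a high share of Trim30a lowers those of the others.

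Some members had close TRIM neighbours in the table. Of the TRIM genes with values here, 5 lay in the cluster chr7:104218793-104465193, in the order Trim6, Trim34a, Trim34b, Trim12c and Trim30a. Genes without values here were not counted. Trim34b rose from 2.43, 2.83 and 2.24 FPKM to 6.56, 4.8 and 5.42 FPKM in normal ECs (log2 change 0.91, adjusted p = 8.14e-05). Trim34b changed by 1.27 in MMTV-PyMT and 1.19 in implanted ECs, near the 1.38 and 1.09 of Trim34a, and reads of this pair may be shared. Trim12c was the nearest of these to Trim30a, with 55662 bases between them. It passed in MMTV-PyMT (0.79, adjusted p = 0.00012) and implanted ECs (0.84, adjusted p = 1.63e-05) but not in normal ECs (0.25, adjusted p = 0.0998). Like Trim30a, Trim12c was lower in MMTV-PyMT than in normal ECs under PBS (-0.88, adjusted p = 6.8e-06). On chromosome 17, Trim15 ends 1292 bases beyond Trim26 on the opposite strand and had only 3 to 52 recovered reads per library. Trim15 passed as higher in all 3 tissues, with log2 changes of 0.88 in normal ECs, 1.0 in MMTV-PyMT ECs and 1.2 in the implanted group, and whether reads from Trim26 reach it was not tested. Trim12c was named for its place after its values were seen.

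Of 37 other TRIM genes in the table, 34 were tested, and they went both ways. In normal ECs 10 were higher, 6 lower and 18 did not pass, in MMTV-PyMT ECs 9 were higher and 5 lower, and in implanted ECs 10 were higher and 11 lower. Of all 13983 tested genes 1920 were higher and 2538 lower in normal ECs, 1037 and 639 in MMTV-PyMT ECs, and 2841 and 2623 in implanted ECs. The median log2 change of the other TRIM genes was -0.04, -0.02 and -0.12, beside -0.04, -0.04 and -0.01 for all tested genes. Pml, which builds nuclear bodies that restrict viruses, rose from 8.58 to 8.76 FPKM under PBS to 23.3 to 35.6 FPKM under cGAMP in normal ECs (log2 change 1.64, adjusted p = 7.23e-06). Pml changed by 2.41 in MMTV-PyMT (adjusted p = 7.63e-08) and by 2.8 in implanted ECs (adjusted p = 6.16e-09), where 13.2 to 16.7 FPKM became 94.9 to 127 FPKM. Its rise, like that of Trim30a, was larger in implanted than in normal ECs (1.16, adjusted p = 0.00472), a call lost after quantile normalisation (0.61, adjusted p = 0.0859).

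Trim69 had log2 changes of 2.24 in the normal group (adjusted p = 2.12e-05), 1.5 in MMTV-PyMT ECs (adjusted p = 0.00159) and 1.06 in the implanted group (adjusted p = 0.00614). Trim16 rose in normal ECs (1.14, adjusted p = 2.31e-06), from 6.48 to 7.03 FPKM to 14.5 to 17.6 FPKM, and fell in implanted ECs (-0.44, adjusted p = 0.00599). Trim72 rose in normal (1.1, adjusted p = 0.00181) and implanted ECs (1.26, adjusted p = 0.000382), at levels below 5 FPKM. Trim6, with 11 to 179 recovered reads per library, rose by 1.03 in the normal group (adjusted p = 4.42e-05), 1.31 in MMTV-PyMT ECs (adjusted p = 4.06e-06) and 1.11 in the implanted group (adjusted p = 8.32e-06). Trim65, a ligase known to act on the RNA sensor MDA5, fell in normal ECs by 1.3 on the log2 scale (adjusted p = 3.29e-06) and in implanted ECs by 0.67 (adjusted p = 0.00082), and its exons overlap those of Trim47 on the same strand, so the reads of the pair are uncertain.

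**Figure D5:**
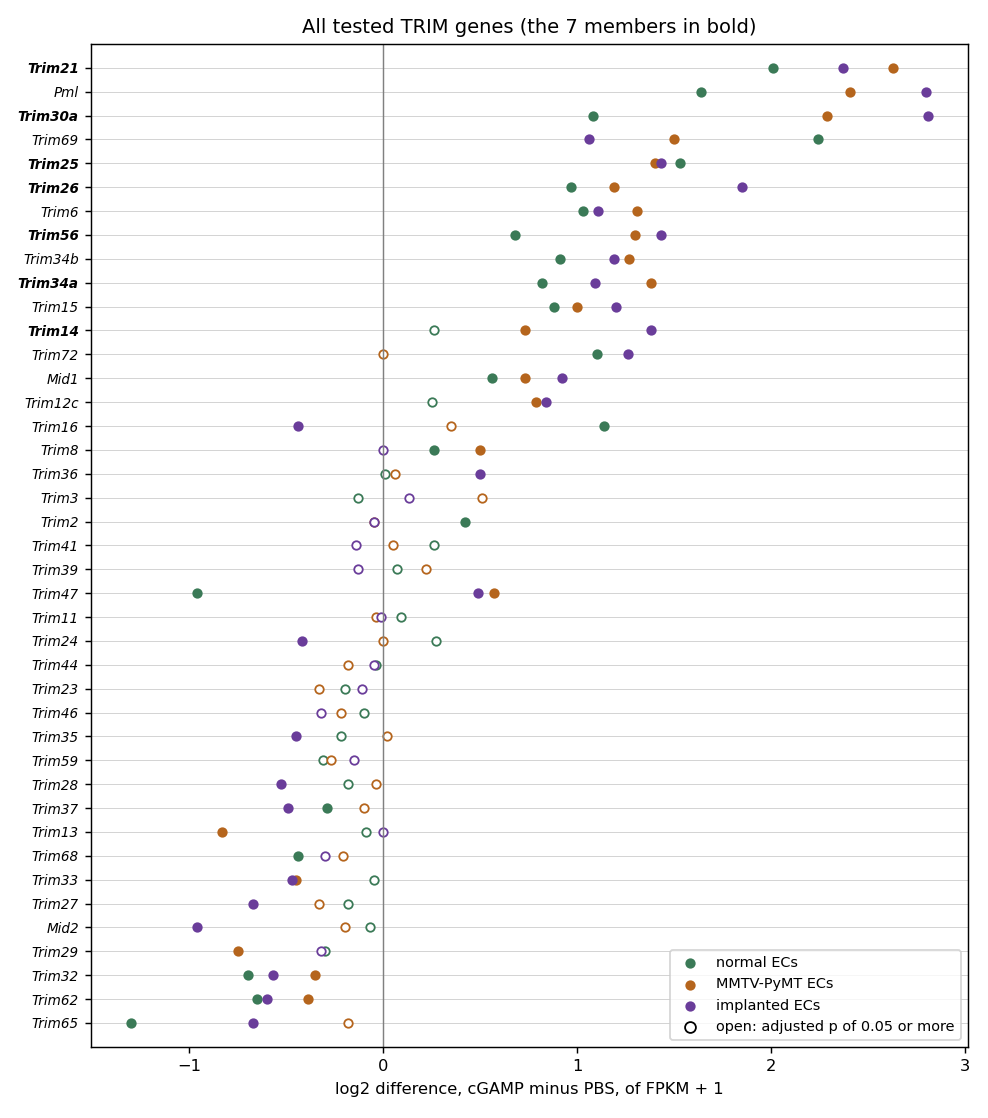
Log2 difference between cGAMP and PBS of FPKM + 1 (horizontal axis) for every tested TRIM gene (vertical axis, sorted by the mean of 3 tissues, the 7 members in bold), with a point for each tissue, filled at an adjusted p under 0.05. Trim21, Pml and Trim30a head the plot, and Trim65 ends it with -1.3 in normal ECs.

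The proteins that the 7 members act on or with were followed in a list of 24 genes, all tested. In normal ECs 12 were higher and 4 lower, in MMTV-PyMT ECs 11 and 2, and in the implanted group 16 and 3. Of all 13983 tested genes 1920 were higher and 2538 lower in normal ECs. These were 1037 and 639 in MMTV-PyMT ECs, and 2841 and 2623 in the implanted group. Their median log2 change was 0.27, 0.15 and 0.54, beside -0.04, -0.04 and -0.01 for all tested genes. Isg15, the ubiquitin-like protein that is joined to many targets in infected cells, had a log2 change of 4.68 in the normal group (adjusted p = 2.53e-09), 5.46 in MMTV-PyMT ECs (adjusted p = 2.11e-10) and 4.15 in the implanted group (adjusted p = 3.23e-09). Usp18, which removes Isg15 from its targets, changed by 4.03, 4.75 and 4.56, and Ifih1, which encodes MDA5, by 3.63, 3.83 and 4.34 in the same order. Irf7, the interferon regulatory factor that amplifies the response, changed by 2.39, 2.25 and 2.09. Zc3hav1, the gene of ZAP, changed by 1.73, 1.98 and 1.97, and Ddx58, the gene of RIG-I, by 1.65, 2.01 and 2.08, and all 6 changes passed.

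Rnf135 is a ligase that acts on RIG-I beside Trim25. It changed by 0.44 in the normal group (adjusted p = 0.024), 1.24 in MMTV-PyMT ECs (adjusted p = 8.48e-06) and 2.27 in the implanted group (adjusted p = 3.3e-09). The call in normal ECs was lost without replicate 1 or 3 of PBS or replicate 1 or 2 of cGAMP, with adjusted p from 0.0663 to 0.093. Its rise was larger in implanted than in normal ECs by 1.83 (adjusted p = 1.67e-05) and than in MMTV-PyMT ECs by 1.02 (adjusted p = 0.00291), while the intervals for Trim25 were -0.33 to 0.12 and -0.19 to 0.26. Mavs, the mitochondrial adaptor of RIG-I, fell in normal (-0.5, adjusted p = 0.00324) and implanted ECs (-0.83, adjusted p = 2.17e-05) and was -0.15 in MMTV-PyMT ECs (adjusted p = 0.42). Mavs was named after its values were seen. The gene of STING, Tmem173, was higher under cGAMP in the 3 tissues, at 0.64, 0.98 and 1.15, and was likewise named after its values were seen.

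Across the 18 libraries the 7 members moved much alike, as a description with no test, since the libraries share 6 groups and 1 treatment. The 15 pairs without Trim14 had a Pearson correlation of log2(FPKM + 1) between 0.78 and 0.97, and the 6 pairs with Trim14 between 0.52 and 0.82. Among all tested genes, those most like Trim21 were Rsad2 (0.991), Cmpk2 (0.99) and Ifih1 (0.99), and those most like Trim25 were Gm36043 (0.995), Ifit2 (0.99) and Rsad2 (0.988). Trim30a was most like Ifi35 (0.987), Phf11b (0.984) and Tap2 (0.982). Trim26 was most like Zup1 (0.993), Ccrl2 (0.987) and Dcp2 (0.986), and Trim34a most like Gbp5 (0.972), Parp14 (0.972) and Gm8995 (0.971). Trim56 was most like Slfn5 (0.978), 9930111J21Rik2 (0.968) and Tm4sf1 (0.967). Trim14 was most like Map2k1 (0.972), Cd40 (0.971) and Bloc1s6 (0.962).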

How the data were processed

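RNA from sorted ECs was sequenced in 18 libraries. According to the submitters' processing notes and the study's methods, reads were checked with FastQC, aligned to mm10 with STAR 2.7 and counted with HTSeq. The deposited values are FPKM. How the authors made them from the counts is not given in the sources used here, and none was 0. Whole reads, within 0.1 read, were recovered from FPKM and GENCODE gene lengths for 15789 genes, the 7 members included, and from the steps between FPKM values for 450 more, 99.94% of genes in all. The 7 members and the gene lists were chosen with earlier results of these data known.

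Genes with at least 1 FPKM in at least 3 libraries were tested on log2(FPKM + 1) with limma 3.58.1 (R 4.3.3, trend, 2-sided), 1 mean per group over all libraries, Benjamini-Hochberg adjustment over all 13983 genes, and calls at an adjusted p under 0.05. An exact permutation test of 3 against 3 cannot go below 0.1 and was not used. All 7 members were named. Of the other TRIM genes and partners, those passing with a log2 change of at least 1, at most 5 per tissue, were named. Replicate pairs differed by more than counting noise. The study reports 3 mice per group from 3 independent experiments. The labels do not name the mouse or experiment of a library, so p-values measure the spread between libraries. Alternatives were a pseudocount of 0.1, no filter, total-read scaling, quantile normalisation, limma-voom on recovered reads, only the groups compared, a replicate block and leaving out each library.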

Additional observations from a re-analysis of the deposited data

Results flagged for a closer look

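There were 7 differences in the cGAMP change between tissues that passed their own limma test with Benjamini-Hochberg adjustment. Implanted ECs exceeded normal ECs by 1.73 for Trim30a, by 1.12 for Trim14, by 0.87 for Trim26 and by 0.76 for Trim56 on the log2 scale. MMTV-PyMT ECs exceeded normal ECs by 1.21 for Trim30a and by 0.62 for Trim21. Implanted ECs exceeded MMTV-PyMT ECs by 0.65 for Trim26. Of these, Trim30a, Trim14 and Trim26 in implanted against normal ECs and Trim26 between the tumours passed under every alternative that was run. Groups of 3 libraries were not tested for single outlying values, and the effect of leaving out each library is given with the results.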

How the results depend on the processing

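In the 3 cGAMP comparisons the number of members that passed, 6, 7 and 7, was the same under every alternative run. Of 945 refitted changes of single members, 890 kept direction and call, 31 lost the call and 15 gained it with the same sign, and 9 changed sign. The changed signs were all of differences that had not passed, and 1 of them passed with its new sign, Trim25 after quantile normalisation (adjusted p = 0.0153). With total-read scaling Trim34a was -0.01 (implanted minus normal), and Trim25 -0.15 and Trim56 -0.05 (implanted minus MMTV-PyMT). With quantile normalisation Trim21 was -0.08 (implanted minus normal), and Trim25 -0.38 and Trim56 -0.13 (implanted minus MMTV-PyMT). Without implanted PBS replicate 1 or implanted cGAMP replicate 1 Trim25 was -0.02 and -0.03, and without MMTV-PyMT cGAMP replicate 1 Trim56 was -0.02. Leaving out each library gave -0.03 to 0.07 for Trim25 and -0.02 to 0.23 for Trim56 in that comparison. The cause was not tested.

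Members with a larger rise in MMTV-PyMT than in normal ECs numbered 2, 1 with total-read scaling, 1 with only the groups compared and 0 to 3 when a library was left out. In the fit with the replicate block the number was 0, as the calls of Trim21 and Trim30a were lost, and no other call of a member changed. The block moved the genes that differed in that comparison from 766 higher and 405 lower to 625 and 328. Within a tissue, PBS and cGAMP libraries of the same number were compared by their deviations from their group means. Over genes these deviations had correlations of -0.291 to 0.263, and the numbers were not taken as pairs. Libraries of different number were not compared in this way. Members with a smaller rise in implanted than in normal ECs numbered 0, 1 with total-read scaling and 1 with quantile normalisation. Between the tumours 1 member had a larger rise, 1 to 2 when a library was left out, and 0 a smaller rise, 2 with quantile normalisation. Under PBS 1 member was lower in implanted than in normal ECs, 2 with total-read scaling. Other TRIM genes lower under cGAMP went with total-read scaling from 5 to 10 in MMTV-PyMT and from 11 to 20 in implanted ECs, and in MMTV-PyMT ECs they were 2 to 5 when a library was left out. That scaling moved the median log2 change of all genes by -0.23 in implanted and -0.11 in MMTV-PyMT ECs, where the members' changes were 0.82 to 2.49 and 0.62 to 2.51. With quantile normalisation 994 genes were higher and 1018 lower in MMTV-PyMT ECs. Trim34a, with 16 to 25 reads in MMTV-PyMT PBS libraries, is the member whose values counting error limits most.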

Other observations

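In 3 of the 6 groups at least 6 of the 7 genes were lowest in the same library. In MMTV-PyMT cGAMP ECs all 7 were lowest in replicate 1, where the 8 endothelial markers summed to 774 FPKM and the 5 epithelial markers to 781 FPKM. In replicates 2 and 3 the endothelial sums were 1050 and 934 FPKM and the epithelial sums 561 and 697 FPKM. Leukocyte sums were 20.4, 18.8 and 22.2 FPKM in replicates 1, 2 and 3, and 0, 3 and 4 genes were highest. In normal cGAMP ECs 6 of 7 were lowest in replicate 3, with Trim34a the exception. That library had the highest endothelial sum of its group, 1050 FPKM, and the lowest epithelial sum, 331 FPKM. Its leukocyte sum was 22.5 FPKM, beside 58.7 FPKM in replicate 1 and 19.2 FPKM in replicate 2. In replicate 1 of this group 5 of 7 genes were highest. In normal PBS ECs 6 of 7 were lowest in replicate 1, again with Trim34a the exception. There the endothelial sum, 1000 FPKM, was the lowest of the group and the epithelial sum, 361 FPKM, the highest. The leukocyte sum was 40.2 FPKM there, 24.8 FPKM in replicate 2 and 56.6 FPKM in replicate 3, in which 4 genes were highest. In the other 3 groups the lowest values were spread over the libraries. In implanted cGAMP ECs 2 genes were lowest in replicate 1, 4 in replicate 2 and 1 in replicate 3. In implanted PBS ECs these were 1, 4 and 2, and in MMTV-PyMT PBS ECs 3, 0 and 4. Replicates have no order, and these counts are given as values with no test. The share of all tested genes that were lowest or highest in the same libraries was not counted.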
